A study of Rattus norvegicus with 8 samples.

Results

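Matricellular proteins are secreted proteins that sit in the extracellular matrix and signal to cells through integrins, syndecans and other receptors rather than bearing load. In arteries they are low in quiescent smooth muscle and are known for their appearance after injury, stretch or exposure to growth factors, when smooth muscle cells migrate, divide and remodel their matrix. Here 6 such genes are described across all groups of the study: Tnc (tenascin C), the CCN genes Ccn1 and Ccn2 (older names Cyr61 and Ctgf), Spp1 (osteopontin), Postn (periostin) and Tnfaip6 (TSG-6, a secreted hyaluronan-binding protein). Members were the genes on a list of 7 symbols to which a probe set of the array is annotated with that symbol alone, which gave 7 probe sets for 6 genes among 11377 genes tested. All 7 probe sets passed the filter on dim values. The seventh symbol, Thbs1, was not analysed here.

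RNA came from smooth muscle cells of the thoracic aorta, taken enzymatically from male Sprague-Dawley rats and grown in medium with 10% serum for 2 passages. All cells were transfected for 48 h, either with a non-targeting control siRNA (siNTC) or with an siRNA against rat Giver (siGiver), a long non-coding RNA of these cells. Each culture then received 100 nM angiotensin II (Ang II), the vasoconstrictor peptide of the renin-angiotensin system, or phosphate-buffered saline (PBS) for 3 h. This gave 4 groups (siNTC PBS, siNTC Ang II, siGiver PBS and siGiver Ang II) of 2 Affymetrix arrays each, with 5 ug of total RNA labelled per array. Nothing in the labels tells whether both arrays of a group stem from separate cultures, so errors and p-values measure array-to-array spread that could be technical. The comparisons ask how Ang II changes transcript levels in each siRNA arm, how the siRNA arms differ in each treatment, and whether the Ang II effect differs between the arms. Since an array measures RNA of all cells together, fewer cells making a transcript and less of it per cell cannot be told apart.

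Values are log2 intensities, which allow a probe set to be followed across arrays but not set against another probe set. They ran from 2.06 to 14.6, with array medians between 6.15 and 6.19 and a correlation of 0.998 between the arrays of each group. All 8 smooth muscle markers looked up were above the filter on dim probe sets (4.81, the 30th percentile), with Tagln at 14.05 and Acta2 at 11.7 on average. All 6 endothelial markers measured, Pecam1 and Vwf among them, lay under that value, as did 4 of 7 macrophage and leukocyte markers, Ptprc, Csf1r, Adgre1 and Itgam. The other 3 lay above it, Cd14 at 8.37, Lyz2 at 5.36 and Cd68 at 5.01. All 6 fibroblast markers measured lay above the filter value, from Lum at 12.4 to Dpt at 4.94, with Dcn at 6.29. The Giver transcript was not analysed here, so its knockdown is known from the labels alone.

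The stretches of 250 bases before the annotated transcription start (RefSeq, build GRCr8, 5′ to 3′ along the gene) are shown for the 3 members that moved most with Ang II and for Ccn2, a close relative of Ccn1 that did not pass for Ang II. Capitals mark matches, on either strand, to the TEAD motif GGAATG (read as CATTCC on the other strand) and to the AP-1 motif TGANTCA.
Ccn1: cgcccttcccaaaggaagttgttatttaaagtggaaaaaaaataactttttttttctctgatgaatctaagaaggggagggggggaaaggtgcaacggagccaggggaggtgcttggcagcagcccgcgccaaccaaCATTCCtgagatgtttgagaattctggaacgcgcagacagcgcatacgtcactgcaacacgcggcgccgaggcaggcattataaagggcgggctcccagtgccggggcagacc
Ccn2: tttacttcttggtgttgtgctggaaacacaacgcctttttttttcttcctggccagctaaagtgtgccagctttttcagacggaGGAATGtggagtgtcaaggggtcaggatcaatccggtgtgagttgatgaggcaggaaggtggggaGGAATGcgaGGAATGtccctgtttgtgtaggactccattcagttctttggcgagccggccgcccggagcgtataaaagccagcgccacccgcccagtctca
Tnc: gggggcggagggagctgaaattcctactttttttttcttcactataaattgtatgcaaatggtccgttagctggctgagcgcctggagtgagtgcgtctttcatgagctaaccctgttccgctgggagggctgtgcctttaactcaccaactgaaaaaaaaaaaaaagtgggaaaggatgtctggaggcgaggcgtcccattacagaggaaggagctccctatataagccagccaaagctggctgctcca
Tnfaip6: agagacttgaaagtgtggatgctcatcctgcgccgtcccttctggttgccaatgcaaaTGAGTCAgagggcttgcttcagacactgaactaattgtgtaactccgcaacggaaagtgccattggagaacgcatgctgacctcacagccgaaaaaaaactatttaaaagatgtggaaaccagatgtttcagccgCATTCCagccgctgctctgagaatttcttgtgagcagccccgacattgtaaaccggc

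These windows are chr2:237225690-237225939 on the minus strand for Ccn1, chr1:22624615-22624864 on the minus strand for Ccn2, chr5:82476132-82476381 on the minus strand for Tnc and chr3:56911148-56911397 on the plus strand for Tnfaip6. TEAD factors are the DNA-binding partners of the mechanosensitive coactivator YAP, and AP-1 is the dimer of Fos and Jun proteins. The Ccn2 window held 3 TEAD matches, whose leading bases lie 166, 101 and 92 bases before the start. Ccn1 held 1 such match 113 bases before the start, and Tnfaip6 held 1 at 57 bases along with an AP-1 match at 192 bases. In the Tnc window neither motif was found, nor was the CRE motif TGACGTCA or the CArG box, the site of serum response factor, in any of the 6 members' windows. Of 33469 rat promoter windows of this length, 12.1% held the TEAD motif, 6.34% the AP-1 motif, 1.59% the CRE motif and 1.5% the CArG box, and the motifs searched do not overlap in the windows shown. A match is a stretch of letters and not evidence of binding. TEAD matches lay in the windows of Ccn1 and Tnfaip6, which rose with Ang II, and of Ccn2, which did not pass. The part of these motifs in the Ang II results was not tested.

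Tnc, a large glycoprotein that loosens cell adhesion and is made by migrating smooth muscle cells, had the largest difference between the arms in its Ang II response among the 6 genes. Its log2 level was 10.48 and 10.49 on the siNTC PBS arrays, 10.60 and 10.64 with Ang II, 9.89 and 9.93 on the siGiver PBS arrays, and 10.96 and 11.02 with Ang II. The siGiver arrays thus hold both the lowest and the highest values, and no 2 groups overlap. In siNTC cells the Ang II difference was 0.13 ± 0.046 log2 (SE of the limma fit, 2 arrays per group; 1.095-fold) and did not pass (adjusted p = 0.149). In siGiver cells Tnc rose by 1.08 ± 0.046, or 2.11-fold (limma adjusted p = 8.91e-06). The interaction (the siGiver Ang II effect less the siNTC one) was 0.95 ± 0.065 (adjusted p = 0.000531), and 0.431% of genes had a larger one in size. Between the arms Tnc changed sides: it was lower in siGiver cells in PBS by 0.58 (-0.58 ± 0.046, adjusted p = 0.00013) and higher with Ang II by 0.37 ± 0.046 (adjusted p = 0.000558). The larger rise in siGiver cells and the lower level in PBS rest on the same 2 siGiver PBS arrays. All of these calls kept their side of the threshold when any 1 array was left out.

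Ccn1, an immediate early gene whose secreted product binds integrins and heparan sulfate, had the same order of groups as Tnc. It stood at 10.75 and 10.69 on the siNTC PBS arrays, 11.10 and 11.16 with Ang II, 10.43 and 10.63 on the siGiver PBS arrays, and 11.65 and 11.69 with Ang II. The siGiver PBS arrays were the lowest and the farthest apart, and every Ang II array lay above every PBS array. In siNTC cells Ccn1 rose by 0.41 ± 0.070 (1.33-fold, limma adjusted p = 0.0169). That call was lost when any 1 of the 4 siNTC arrays was left out, with values between 0.38 and 0.44 and an adjusted p of up to 0.111. In siGiver cells it rose by 1.14 ± 0.070, or 2.21-fold (adjusted p = 5.95e-05), and the interaction was 0.73 ± 0.099 (adjusted p = 0.0065). In PBS the arms differed by -0.19 ± 0.070 and did not pass (adjusted p = 0.07). Without siGiver PBS replicate 2 that difference was -0.29 and passed (adjusted p = 0.0155), and without siGiver PBS replicate 1 it was -0.09 (adjusted p = 0.341). With all arrays it also passed under a filter at the 50th percentile (adjusted p = 0.0421) and with trended, robust moderation (adjusted p = 0.00644). With Ang II present Ccn1 was higher in siGiver cells by 0.54 ± 0.070 (1.46-fold, adjusted p = 0.000672). As for Tnc, the larger rise in siGiver cells and the difference in PBS rest on the same 2 siGiver PBS arrays.

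Tnfaip6, which binds hyaluronan and transfers heavy chains onto it in inflamed matrix, had the widest range of the 6 genes, 1.91 log2 between its lowest and highest group mean. The brighter of its 2 probe sets read 11.24 and 11.34 on the siNTC PBS arrays, 11.80 and 11.82 with Ang II, 9.83 and 9.97 on the siGiver PBS arrays, and 11.20 and 11.20 with Ang II. The siGiver PBS arrays stood far under all others, and each siGiver group lay under the siNTC group of the same treatment. Ang II raised Tnfaip6 in siNTC cells by 0.52 ± 0.060 (1.44-fold, limma adjusted p = 0.00357) and in siGiver cells by 1.30 ± 0.060 (2.46-fold, adjusted p = 1.35e-05). The interaction was 0.78 ± 0.085 (adjusted p = 0.00292). Unlike Tnc and Ccn1, Tnfaip6 was lower in siGiver cells under both treatments, by -1.39 ± 0.060 in PBS (2.62-fold, adjusted p = 1.86e-05) and by -0.61 ± 0.060 with Ang II (1.53-fold, adjusted p = 0.000184). In PBS only 0.0967% of the genes tested differed more in size between the arms. As for Tnc, the larger rise in siGiver cells and the lower level in PBS rest on the same 2 siGiver PBS arrays. The siGiver Ang II arrays and the siNTC PBS arrays, neighbours in the order of levels, differed by 0.09 (95% interval -0.05 to 0.23, adjusted p = 0.271).

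The dimmer Tnfaip6 probe set gave the same directions for Ang II in each arm and for the siRNA in each treatment. It read 7.09 and 7.36 in siNTC PBS, 7.78 and 7.79 in siNTC Ang II, 5.81 and 5.92 in siGiver PBS, and 7.24 and 7.44 in siGiver Ang II. With each of 16140 probe sets fitted on its own, its Ang II rise was 0.57 ± 0.10 in siNTC cells (limma adjusted p = 0.025) and 1.47 ± 0.10 in siGiver cells (adjusted p = 0.000156). Its interaction was 0.91 ± 0.14 (adjusted p = 0.0175). The siRNA difference was -1.36 ± 0.10 in PBS and -0.45 ± 0.10 with Ang II, and both passed. Unlike in the brighter probe set, siGiver Ang II lay above siNTC PBS, at means of 7.34 and 7.22, with overlapping arrays. The other 5 genes have 1 probe set each, so no such check exists for them.

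Spp1, a phosphorylated glycoprotein that binds integrins and CD44 and marks smooth muscle cells that have left the contractile state, moved little on this scale. Its arrays read 13.93 and 13.92 in siNTC PBS, 13.997 and 14.02 in siNTC Ang II, 13.71 and 13.73 in siGiver PBS, and 13.98 and 13.98 in siGiver Ang II. The siGiver PBS arrays were lowest, and the other 3 groups lay within 0.09 log2 of each other on average. In siGiver cells Spp1 rose with Ang II by 0.26 ± 0.041 (1.198-fold, limma adjusted p = 0.00569), against 0.09 ± 0.041 in siNTC cells (95% interval -0.01 to 0.18, adjusted p = 0.257). The interaction, 0.17 ± 0.058, did not pass (adjusted p = 0.132), so the Ang II effects were not shown to differ. It passed with trended, robust moderation (adjusted p = 0.000169). In PBS Spp1 was lower in siGiver cells by -0.20 ± 0.041 (adjusted p = 0.00692), and with Ang II the difference was -0.03 (95% interval -0.13 to 0.06).

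Ccn2, the CCN gene induced by transforming growth factor beta and mechanical load, gave no call for Ang II in either arm. It read 14.53 and 14.49 in siNTC PBS, 14.54 and 14.53 in siNTC Ang II, 14.33 and 14.35 in siGiver PBS, and 14.42 and 14.39 in siGiver Ang II. All siGiver arrays lay under all siNTC arrays. The Ang II difference was 0.03 (95% interval -0.07 to 0.13) in siNTC cells and 0.06 (-0.04 to 0.16) in siGiver cells, where it passed with trended, robust moderation (adjusted p = 0.0212). Ccn2 was lower in siGiver cells by -0.16 ± 0.042 in PBS (limma adjusted p = 0.0197) and by -0.13 ± 0.042 with Ang II (adjusted p = 0.0364). The call in PBS was lost without siNTC PBS replicate 1 or either siGiver PBS array (values from -0.17 to -0.15), and when only the 2 groups compared were fitted (adjusted p = 0.0599). With Ang II it was lost in 6 of 8 fits that left out 1 array (all but those without a siNTC PBS array) and under 5 of 9 other settings, with values between -0.15 and -0.11. These readings lie close to 14.6, the highest value on any array. Spp1 and Postn also read high, with means of 13.91 and 13.59 over all arrays, above 99.84% and 99.69% of non-control probe sets. Whether the signal was still proportional to transcript level at such readings was not tested for Ccn2, Spp1 or Postn.

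Postn, a secreted matrix protein made in neointima and by activated fibroblasts, did not pass for Ang II in either arm. It read 13.77 and 13.65 in siNTC PBS, 13.67 and 13.65 in siNTC Ang II, 13.48 and 13.51 in siGiver PBS, and 13.50 and 13.48 in siGiver Ang II. Within each arm the Ang II and PBS arrays overlap, and the siGiver arrays lie under the siNTC arrays. The Ang II difference was -0.05 (95% interval -0.17 to 0.07) in siNTC cells. In siGiver cells it was -0.004 (-0.12 to 0.12), a value whose sign turned under cyclic loess, with array medians subtracted, and without siGiver PBS replicate 2 or siGiver Ang II replicate 2. Postn was lower in siGiver cells by -0.21 ± 0.051 in PBS (limma adjusted p = 0.0149) and by -0.17 ± 0.051 with Ang II (adjusted p = 0.0289). The call in PBS was lost without siNTC PBS replicate 1 (-0.16) or siGiver PBS replicate 1 (-0.20), and the call with Ang II without any 1 of the 4 Ang II arrays (-0.18 to -0.16).

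**Figure D1:**
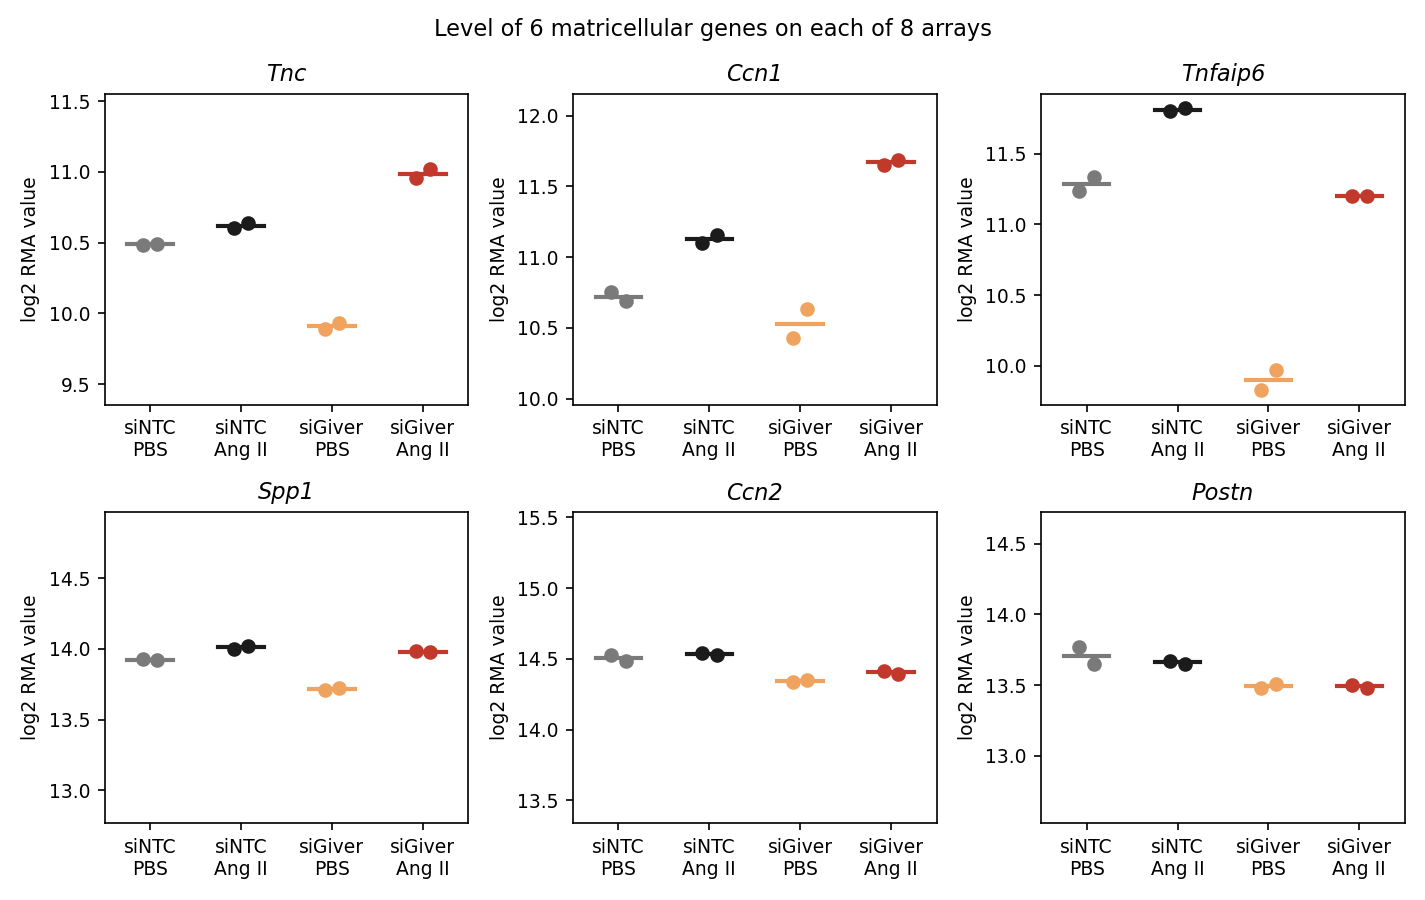
Log2 RMA value (vertical axis) of the brightest probe set of each gene on every array, in the 4 groups; points are arrays, short lines are group means of 2 arrays, and all panels span the same height in log2 units. Tnc and Ccn1 are lowest in siGiver PBS and highest in siGiver Ang II, while Tnfaip6 is highest in siNTC Ang II at a mean of 11.8.

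Counted together, 2 of the 6 genes rose with Ang II in siNTC cells (Ccn1 and Tnfaip6) and none fell, in a comparison where limma called 6.14% of the 11377 genes, 3.96% higher and 2.17% lower. Their median Ang II difference was 0.11 log2, against 0.0058 over all genes tested. In siGiver cells 4 rose (Tnc, Ccn1, Tnfaip6 and Spp1) and none fell, where 16.3% of genes were called (9.11% higher and 7.17% lower), with a median of 0.67 against -0.03 over all genes. Of these, Spp1 changed by less than 1.5-fold and the other 3 by more than 2-fold in siGiver cells. The Ang II effect differed between the arms for 3 genes (Tnc, Ccn1 and Tnfaip6), each larger in siGiver cells, where 6.21% of genes were called, 3.35% higher and 2.87% lower.

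**Figure D2:**
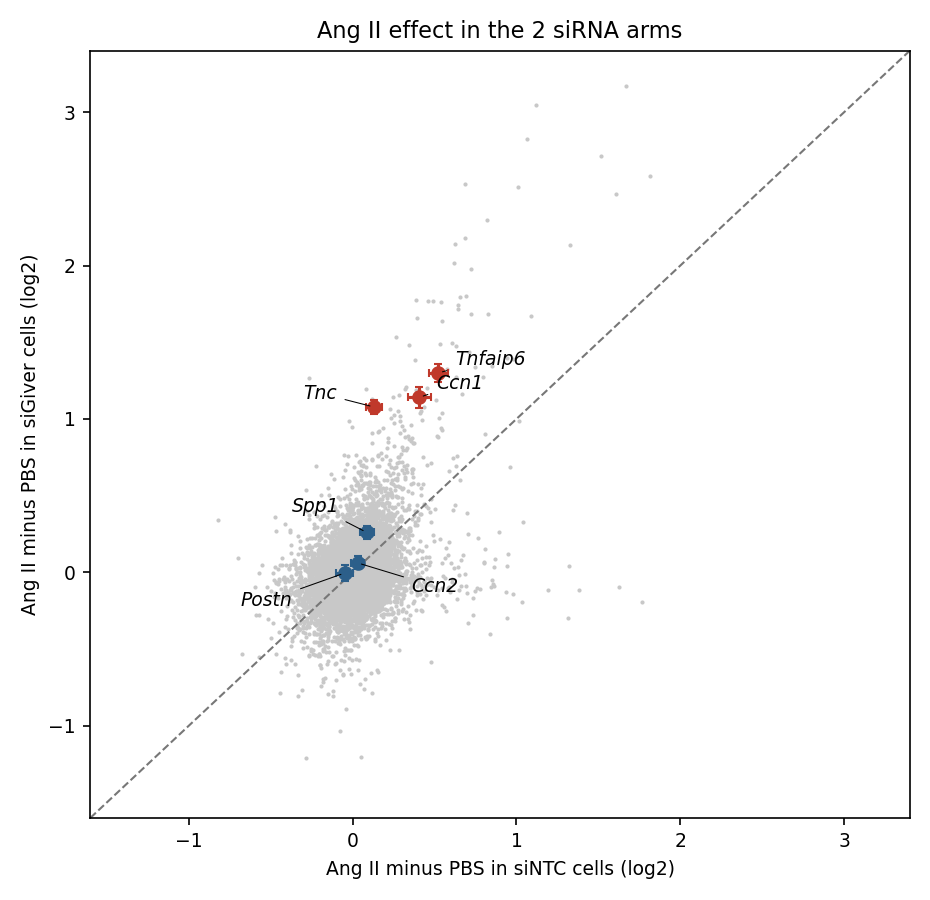
Ang II minus PBS difference in siNTC cells (horizontal axis, log2) against that in siGiver cells (vertical axis, log2) for the 11377 genes tested (grey) and the 6 members with SE bars; the dashed line marks equal effects. The members whose interaction passed (red: Tnc, Ccn1 and Tnfaip6) lie above the line, and those that did not pass (blue: Spp1, Ccn2 and Postn) lie near the origin.

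Between the siRNA arms in PBS, 5 of 6 genes were lower in siGiver cells and none was higher, where 35% of all genes were called, 16% higher and 19.1% lower. The sizes were unequal: Tnfaip6 at -1.39 and Tnc at -0.58 stood apart from Spp1, Postn and Ccn2, which lay between -0.21 and -0.16. With Ang II present, 2 were higher (Tnc and Ccn1) and 3 were lower (Tnfaip6, Ccn2 and Postn), where 44.3% of genes were called, 19.5% higher and 24.8% lower. The share called over all genes was large in both of these comparisons, so the small differences of Spp1, Postn and Ccn2 are of a kind that many genes showed: 30.8% of genes had a larger difference in PBS than Postn and 41.7% a larger one than Ccn2. Of the smooth muscle markers, 6 of 8 were higher and 1 lower in siGiver cells under each treatment (median 0.40 in PBS and 0.53 with Ang II). Their summed linear level was 25350 to 25990 in siNTC PBS, 24580 to 24840 in siNTC Ang II, 27170 to 27410 in siGiver PBS and 28340 to 28380 in siGiver Ang II. Among fibroblast markers 4 of 6 fell with Ang II in siNTC cells, where 2.17% of all genes fell, and 1 of 6 in siGiver cells, where 7.17% fell. Their summed level was 6014 to 6364, 5176 to 5186, 6640 to 6765 and 5764 to 6151 in the same order of groups. The summed level of the 7 macrophage and leukocyte markers was 455 to 480, 517.9 to 533.3, 459.4 to 473.7 and 402.1 to 414.5 in that order. Of the 3 tested, none passed for Ang II in either arm by limma, and with Ang II Cd68 (-0.60) and Cd14 (-0.45) were lower in siGiver cells, where 24.8% of all genes were lower. Each sum is weighted towards its brightest probe set, on average Tagln at 14.05, Lum at 12.4 and Cd14 at 8.37, so it is not an even measure of its list. The part of these cell markers in the members' results was not tested.

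**Figure D3:**
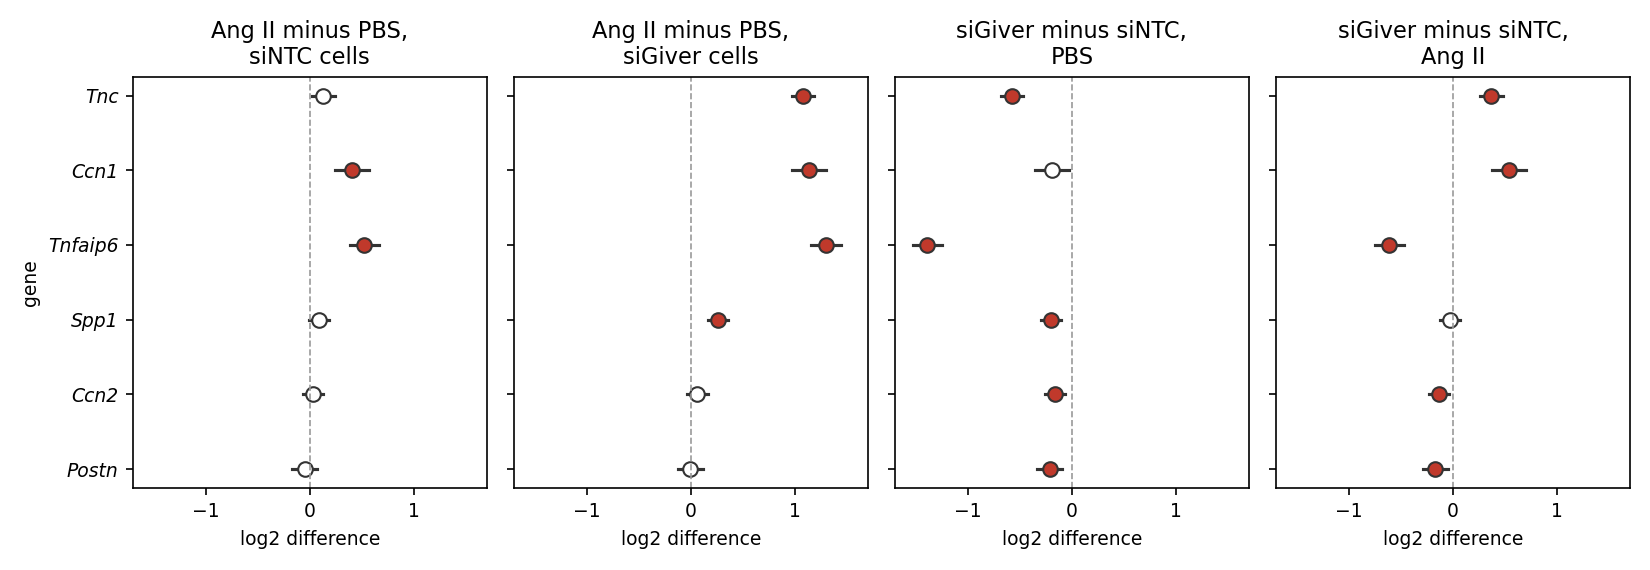
Log2 difference (horizontal axis) of each gene (vertical axis) in 4 comparisons, with 95% confidence intervals of the limma fit; filled points have an adjusted p under 0.05 over all genes, open points do not. Tnc and Ccn1 lie left of 0 for siGiver minus siNTC in PBS and right of 0 with Ang II, with Ccn1 not passing in PBS.

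Of 30 other matricellular genes listed as relatives, 18 were tested, 10 lay under the filter and 2 were not analysed here. With Ang II 1 rose and 2 fell in siNTC cells (median -0.06), where 6.14% of all genes were called, and 2 rose and 1 fell in siGiver cells (median 0.0044), where 16.3% were called. The 2 that fell in siNTC cells, Smoc1 (-0.23) and Fbln2 (-0.22), lost their calls in all 8 fits without 1 array. They also lost them under 4 and 3 other settings. Ccn3, an antiproliferative CCN gene, rose in both arms, by 0.25 ± 0.049 (limma adjusted p = 0.0291) and 0.34 ± 0.049 (adjusted p = 0.00372). The siNTC call for Ccn3 was lost without any 1 siNTC array or either siGiver Ang II array (0.21 to 0.29). It was also lost with no filter (limma adjusted p = 0.0582) and when only the 2 groups compared were fitted (0.0772). Ccn4, a CCN gene of the Wnt pathway, rose in siGiver cells by 0.36 ± 0.052 (adjusted p = 0.00363) after standing lower there in PBS by -0.40 ± 0.052 (adjusted p = 0.00101), while in siNTC cells its Ang II difference was -0.05. Ccn5, a CCN gene that restrains smooth muscle growth, fell in siGiver cells by 0.23 on the log2 scale (adjusted p = 0.0118), a call lost without siGiver PBS replicate 2 or either siGiver Ang II array (-0.24 to -0.20). In siNTC cells its Ang II difference was -0.14 and did not pass. Its means in PBS and with Ang II were 11.93 and 11.79 in siNTC cells, and higher in siGiver cells at 12.29 and 12.06.

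Between the arms 2 of the 18 relatives were higher and 5 lower in PBS, where 35% of all genes were called, and 6 were higher and 3 lower with Ang II, where 44.3% were called. Mfge8, a secreted glycoprotein that binds integrins and phosphatidylserine, was higher in siGiver cells by 1.88 ± 0.056 in PBS (limma adjusted p = 1.07e-05) and by 1.93 ± 0.056 with Ang II (adjusted p = 1.86e-06). Its group means were 10.81 and 10.78 in siNTC cells against 12.69 and 12.71 in siGiver cells, with PBS named before Ang II. Lgals3, a galactoside-binding lectin, was lower by -0.55 in PBS and -0.59 with Ang II. Efemp1 (fibulin 3) was higher with Ang II by 1.12 ± 0.12 (adjusted p = 0.000297), with values over all settings from 0.99 to 1.26. Its siNTC Ang II level, 4.44, was dim and lay under the filter value.

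Of 19 tested receptors of matricellular proteins, 6 rose and 1 fell with Ang II in siGiver cells (median 0.15, against 16.3% of all genes called and a median of -0.03), and 3 rose and 4 fell in siNTC cells (median -0.04, against 6.14% and 0.0058). Sdc4, a heparan sulfate proteoglycan receptor, rose in both arms, by 0.28 ± 0.054 in siNTC cells (limma adjusted p = 0.026) and 0.72 ± 0.054 in siGiver cells (adjusted p = 0.000163). The siNTC call for Sdc4, singled out after its value was seen, was lost without any 1 siNTC array and with no filter (0.26 to 0.30). Cd44, the receptor of hyaluronan and of Spp1, rose in both arms, by 0.36 ± 0.056 (adjusted p = 0.0104) and 0.67 ± 0.056 (adjusted p = 0.00026). The siNTC call for Cd44 was lost without siNTC PBS replicate 1 or siNTC Ang II replicate 2, and its values over all settings ran from 0.26 to 0.41. Cd47 rose in siNTC cells by 0.36 ± 0.048 (limma adjusted p = 0.00614), while its siGiver difference was -0.05 and did not pass (adjusted p = 0.478). The siNTC call for Cd47 was lost without the same 2 arrays as for Cd44, with values over all settings from 0.22 to 0.38. Itga1 and Itga8 fell in siNTC cells, at -0.40 ± 0.054 and -0.39 ± 0.051 (limma adjusted p = 0.00636 and 0.00576). The call for Itga1 was lost without siNTC Ang II replicate 2. In siGiver cells Lrp6 fell, at -0.38 ± 0.057 (adjusted p = 0.00441). Itga5, the alpha chain of the fibronectin receptor, rose by 0.71 ± 0.073 in siGiver cells and was higher there than in siNTC cells in PBS (0.49) and with Ang II (1.23 ± 0.073, adjusted p = 2.32e-05). Itgb5 and Itgav, which pair as a receptor for Spp1, Postn and the CCN proteins, were lower in siGiver cells in PBS by -0.47 and -0.47. With the mean of all their probe sets in place of the brightest these were -0.26 and -0.22, and both still passed. In all, 4 of 19 receptors were higher and 4 lower in PBS (16% and 19.1% of all genes), and 9 were higher and 4 lower with Ang II (19.5% and 24.8%).

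Among the 9 tested genes of the hyaluronan matrix in which Tnfaip6 works, Ang II changed 1 in siNTC cells and none in siGiver cells by limma, against 6.14% and 16.3% of all genes. Cemip, which degrades hyaluronan, fell in siNTC cells by 0.45 on the log2 scale (adjusted p = 0.00747), a call lost without siNTC Ang II replicate 2 (values over all settings from -0.54 to -0.36). In siGiver cells 2 of 9 were higher and 2 lower than in siNTC cells in PBS (35% of all genes called), and with Ang II 3 were higher and 4 lower (44.3% called). The cell surface hyaluronidase gene Cemip2 was lower in siGiver cells by -0.89 ± 0.072 in PBS (adjusted p = 0.000138) and -0.89 with Ang II. Versican (Vcan), a large proteoglycan that binds hyaluronan, was lower by -0.39 ± 0.071 and -0.45 ± 0.071, and Cemip was higher by 0.58 and 0.98.

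YAP/TEAD and serum response factor are known regulators of Ccn1 and Ccn2 transcription. Of their other targets and regulators, 7 of 22 tested rose with Ang II in siGiver cells and none fell (median 0.15), where 9.11% of all genes rose and 7.17% fell (median -0.03). In siNTC cells 2 rose and 1 fell (median 0.0008), where 3.96% of all genes rose and 2.17% fell (median 0.0058). The kinase gene Nuak2 rose by 0.30 ± 0.049 in siNTC cells and 0.95 ± 0.049 in siGiver cells (limma adjusted p = 0.0127 and 2.42e-05), and tissue factor (F3) by 0.30 ± 0.045 and 0.82 ± 0.045. The siNTC calls were lost without any 1 siNTC array for Nuak2 (0.29 to 0.32), and without siNTC PBS replicate 1 or either siNTC Ang II array for F3 (0.29 to 0.32). Fhl2 and Srf rose in siGiver cells by 0.69 and 0.49. In PBS 10 of 22 were higher and 2 lower in siGiver cells, against 16% and 19.1% of all genes. With Ang II 15 were higher and 1 lower (median 0.33), against 19.5% and 24.8% (median -0.03). The LIM protein gene Ajuba was higher by 0.85 in PBS and 0.98 with Ang II. Lats2 was lower in siGiver cells by -0.54 in PBS, and its means with Ang II were 12.19 in siNTC and 11.68 in siGiver cells.

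In the list of transforming growth factor beta activation and signalling, 16 genes were tested, and 5 rose and 1 fell with Ang II in siGiver cells, where 16.3% of all genes were called. In siNTC cells 1 rose and 2 fell, where 6.14% were called. The calls of the 2 that fell, Ltbp3 (-0.24) and Ltbp2 (-0.23), were lost in 8 and 4 of the 8 fits without 1 array. They were also lost under 4 and 1 other settings. Tgfb3, a ligand of the family, rose in both arms, by 0.33 ± 0.042 and 0.81 ± 0.042 (limma adjusted p = 0.00481 and 2.46e-05). It was higher in siGiver cells by 0.96 in PBS and by 1.44 ± 0.042 with Ang II (adjusted p = 1.86e-06). The receptor gene Tgfbr1 was lower in siGiver cells in PBS by -0.76 ± 0.057 (adjusted p = 0.0001) and rose there with Ang II by 0.43 ± 0.057 (adjusted p = 0.00255). The ligand gene Tgfb1 was lower in siGiver cells in PBS by -0.51 ± 0.067, and rose there with Ang II by 0.33 ± 0.067 (adjusted p = 0.0158). The call for this rise was lost without siGiver PBS replicate 2 or either siGiver Ang II array (0.24 to 0.43). Fitting only the 2 groups compared also lost it (limma adjusted p = 0.0566). Skil, an inhibitor of the pathway, was lower in siGiver cells by -0.65 in PBS and -0.53 with Ang II. Between the arms 4 of 16 were higher and 5 lower in PBS (35% of all genes called), and 8 were higher and 2 lower with Ang II (44.3% called).

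**Figure D4:**
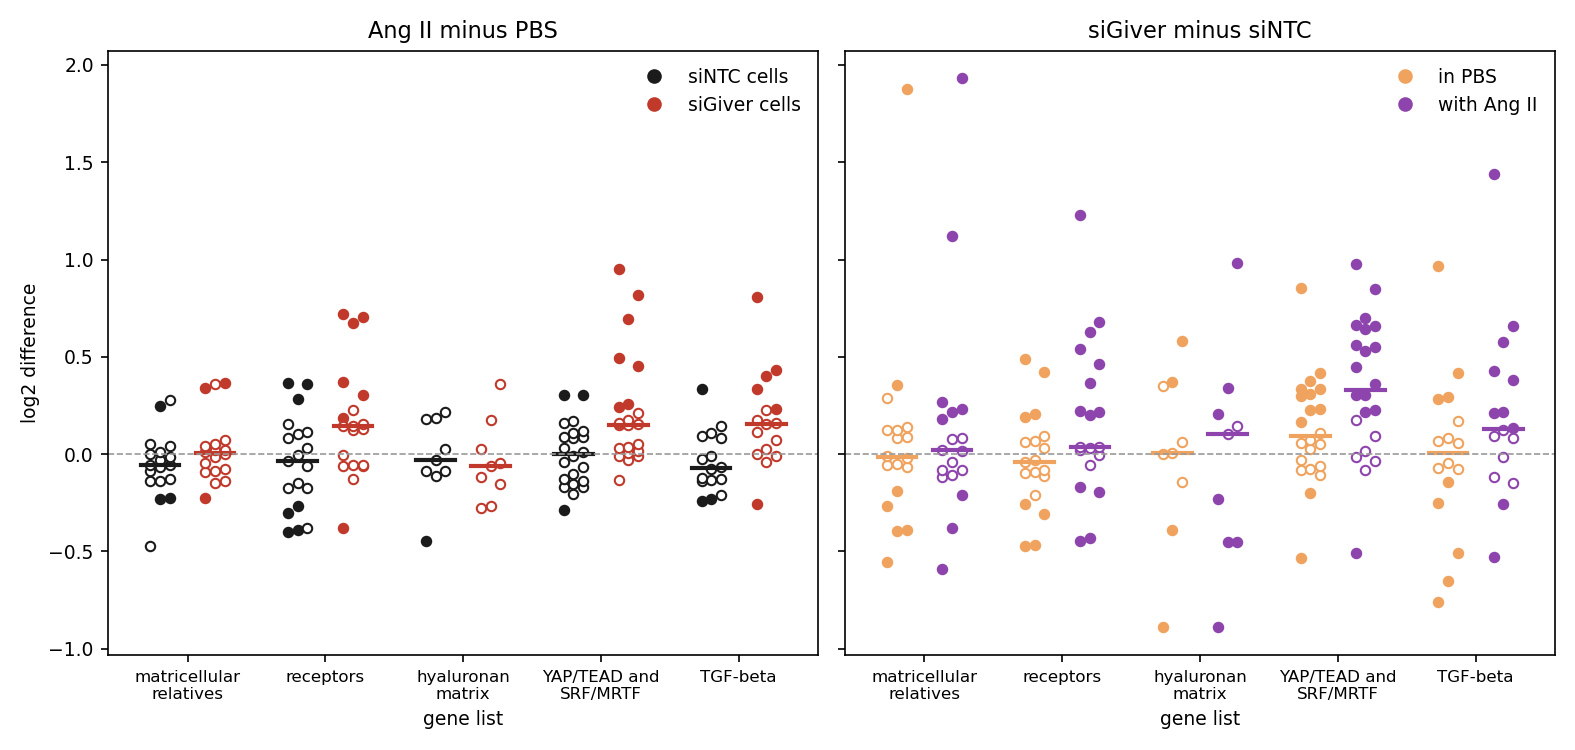
Log2 difference (vertical axis) of each tested gene in 5 gene lists (horizontal axis), for Ang II minus PBS in each arm (left) and siGiver minus siNTC in each treatment (right); filled points passed an adjusted p of 0.05, open points did not, and lines are list medians. In the YAP/TEAD and SRF/MRTF list the median with Ang II is 0.15 in siGiver cells and 0.0008 in siNTC cells, and the siRNA difference with Ang II has a median of 0.33.

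The genes whose pattern over the 8 arrays was most like a member's were found by the root mean square difference of log2 values after centring each gene on its mean. For Ccn1 they were Tnfrsf11b (osteoprotegerin), Sphk1 (sphingosine kinase 1) and Olfml2b, at 0.065, 0.066 and 0.074 log2, where Ccn1 itself varied by 0.44 about its mean. Tnc came closest to Gcnt2, Ppl and Map6, at 0.074, 0.094 and 0.12, against its own 0.39. Tnfaip6 had no neighbour as close: Eva1a, Trib2 and Cds1 followed at 0.23, 0.24 and 0.27, against its own 0.71. For the members that varied little the distances were small by construction. The nearest were Phc2 to Spp1 (0.025 against its own 0.11), Ddx3x to Ccn2 (0.0096 against 0.079) and Sike1 to Postn (0.019 against 0.10).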

How the data were processed

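RNA of 8 samples in 4 groups of 2 was measured on Affymetrix arrays. The deposited values are log2 values per probe set; per the submitters' processing notes the authors used RMA (background correction, quantile normalization, 1 summary per probe set) and Partek, with versions not given in the sources used here. Arrays have no read depth, and their number limits precision; an exact permutation test of 2 against 2 arrays cannot go below p = 0.333.

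Probe sets were named by GEO's platform annotation, updated by gene identifier (20764 of 20832 single-symbol probe sets matched). Controls, probe sets with several symbols (436) or none listed (9780), and those averaging under the 30th percentile were left out, and the brightest per gene was kept. A mean per group was fitted with limma 3.58.1 (R 4.3.3) over 11377 genes, with Benjamini-Hochberg adjusted p under 0.05 per contrast as the call; the scripts were tested on simulated data. All 7 members of the rule are accounted for, and up to 4 called genes per list and comparison, those with the largest changes, could be named, with the 3 most similar genes per member. The members and lists were chosen with earlier results of these data known. Alternatives covered the filter, probe set choice, normalization, moderation, arrays fitted, a replicate block and leaving out each array.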

Additional observations from a re-analysis of the deposited data

Results flagged for a closer look

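The Ang II effect differed between the siRNA arms by limma's interaction test for 3 of the 6 matricellular genes. Of all 11377 genes tested, 6.21% were called for the interaction, 3.35% higher and 2.87% lower. The siGiver effect less the siNTC effect was 0.73 log2 for Ccn1, 0.95 for Tnc and 0.78 for Tnfaip6, and each kept its call in all 16 other fits.

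The list genes with the largest differences that passed, up to 4 per list, were the receptors Itga5 (0.74), Egfr (0.64), Cd36 (0.48) and Sdc4 (0.44), the relatives Efemp1 (0.83, with a siNTC Ang II level under the filter value) and Ccn4 (0.42), and the hyaluronan gene Cemip (0.40). Among YAP/TEAD and SRF/MRTF genes Nuak2 stood at 0.65, Fhl2 at 0.53, F3 at 0.51 and Vcl at 0.41. Among transforming growth factor beta genes Tgfbr1 stood at 0.51, Tgfb3 at 0.47 and Tgfbr3, in the opposite direction, at -0.40. Called higher and lower were 5 and 1 of 19 receptors, 2 and 0 of 18 relatives and 1 and 0 of 9 hyaluronan genes. In the other lists these were 7 and 0 of 22 YAP/TEAD and SRF/MRTF genes and 2 and 1 of 16 transforming growth factor beta genes. Over all genes 3.35% were called higher and 2.87% lower. The interactions of 2 other receptors are named here after their values were seen. Cd47 passed in the opposite direction (-0.41, and -0.46 to -0.31 over all fits), a call lost in 3 of the 8 fits without 1 array. Itga8 passed at 0.33 (0.29 to 0.37), a call lost in all 8 of those fits, with no filter and with every probe set on its own. The calls for Cemip, Sdc4 and Tgfbr3 were lost in 7 of the 8 fits without 1 array, and that for Efemp1 in 6. Those for Cd36 and Ccn4 were lost in 5, that for Vcl in 4, and that for Tgfbr1 without siNTC PBS replicate 1 only. Values over all fits were 0.32 to 0.49 for Cemip, 0.42 to 0.54 for Cd36, 0.37 to 0.50 for Sdc4 and 0.67 to 1.002 for Efemp1. They were 0.37 to 0.47 for Ccn4, 0.36 to 0.45 for Vcl, 0.34 to 0.57 for Tgfbr1 and -0.49 to -0.25 for Tgfbr3. With no filter the calls for Cemip, Tgfbr3 and Efemp1 were also lost (limma adjusted p = 0.0746, 0.0792 and 0.0607). Those for Cemip and Tgfbr3 were lost with every probe set on its own (0.0583 and 0.0633), and Tgfbr3 with the mean of probe sets (0.125) and array medians subtracted (0.0519).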

How the results depend on the processing

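With trended, robust moderation 4 members were called for Ang II in siNTC cells in place of 2 (Tnc and Spp1 added, limma adjusted p = 0.0329 and 0.00489), 5 for Ang II in siGiver cells in place of 4 (Ccn2, 0.0212), 6 for the siRNA in PBS in place of 5 (Ccn1, 0.00644) and 4 for the interaction in place of 3 (Spp1, 0.000169). Leaving out 1 array gave 1 to 2 members for Ang II in siNTC cells, 4 to 4 for Ang II in siGiver cells, 3 to 5 for the siRNA in PBS, 3 to 5 for the siRNA with Ang II and 3 to 3 for the interaction. Values that turned sign were Postn's alone, and none of them had passed: for Ang II in siGiver cells 0.0059 with cyclic loess, 0.022 with array medians subtracted, 0.0077 without siGiver PBS replicate 2 and 0.006 without siGiver Ang II replicate 2, and, without siNTC PBS replicate 1, 0.011 for Ang II in siNTC cells and -0.015 for the interaction. Over all fits that left out 1 array, Postn ran from -0.106 to 0.011 for Ang II in siNTC cells, from -0.016 to 0.0077 for Ang II in siGiver cells, and from -0.015 to 0.102 for the interaction. The cause was not tested. With the replicate number as a block, the members called were 2, 4, 5, 5 and 3 in the order above, and no member's call changed. Among the named list results the block lost the interaction calls of Cemip and Tgfbr3 (adjusted p = 0.0589 and 0.0712) and the calls of Fbln2, Ltbp3 and Smoc1 for Ang II in siNTC cells (0.0534, 0.0603 and 0.0537). Deviations of same-numbered arrays correlated between -0.172 and 0.096 over the pairs of groups, so the number was not taken as a pairing. Of 83 named results in the lists, 59 kept their call in every fit, 24 lost it in a fit without 1 array, 11 under another setting and 0 turned sign.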
